A study of Mus musculus with 6 samples.

Results

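The proteasome genes described here are the rows of the count table whose names begin with Psm, followed by a letter from a to g and a digit, with pseudogene copies left out. Membership followed the gene name, and 50 of the 54532 genes in the table carried such a name. Of these, 48 had enough counts to be tested, among 13377 genes tested in all. The 2 others were Psmb11, the catalytic subunit of the thymus, listed at 0 in every library, and Psmc3ip, a meiotic recombination factor that shares only the prefix, with 0 to 11 counts a library.

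Liver RNA was sequenced from male C57BL/6J mice made insulin resistant (IR) by a high-fat diet for 6 weeks, begun at 8 weeks of age. All mice were fasted for 16 h. The IR insulin group (n = 3) then received insulin intraperitoneally at 0.75 units per kg, and the IR vehicle group (n = 3) received the BSA vehicle, with livers taken 6 h later. Both groups therefore shared the diet, the fast and the injection, and no chow-fed mice were part of the libraries used here, so the diet itself was not compared. The only contrast is insulin against vehicle in IR liver, which asks which transcripts still respond to insulin in that state.

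The proteasome degrades proteins that carry ubiquitin chains. Its 20S core is a barrel in which rings of alpha subunits (Psma genes) guard rings of beta subunits (Psmb genes), and its proteolytic sites belong to Psmb5, Psmb6 and Psmb7. The 19S regulatory particle recognises and unfolds substrates by way of its ATPases (Psmc genes) and non-ATPase subunits (Psmd genes). Cells exposed to interferon replace the catalytic subunits with Psmb8, Psmb9 and Psmb10, which form the immunoproteasome and favour peptides suited to MHC class I. NFE2L1 and NFE2L2, which bind antioxidant response elements, can raise transcription of proteasome genes when proteasome capacity falls short.

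The promoters below are shown because the immunoproteasome subunits and the constitutive subunits they replace are the members on which the comparison turns. RefSeq (GRCm38.p6) start windows were found for 42 of the 50 members, and not for Psma8, Psmb1, Psmb2, Psmb7, Psmc3, Psmd3, Psmd7 or Psmg2. Each line gives the bases before the RefSeq start, on the strand of the gene, with a motif match in capitals. GENCODE vM21 starts differ. It begins Psmb8 at 34197721 and Psmb9 at 34187764, so the lines of these genes lie inside the GENCODE genes. It begins Psmb10 at 105938444 and Psmb5 at 54618022, so their lines lie inside in part. Psmb8 (chr17:34197945-34198194, plus strand) holds a gamma-activated site, TTCNNNGAA, whose first base lies 97 bases before the start. Psmb9 (chr17:34187331-34187555, minus strand) is shown for the 225 bases that separate its start from that of Tap1, the peptide transporter gene that runs the other way. Psmb10 (chr8:105938393-105938642, minus strand) holds none of the motifs searched. Psmb5 (chr14:54617996-54618245, minus strand) and Psmb6 (chr11:70525107-70525356, plus strand) each hold an antioxidant response element, TGACNNNGC, starting 47 and 9 bases before the start.
Psmb8: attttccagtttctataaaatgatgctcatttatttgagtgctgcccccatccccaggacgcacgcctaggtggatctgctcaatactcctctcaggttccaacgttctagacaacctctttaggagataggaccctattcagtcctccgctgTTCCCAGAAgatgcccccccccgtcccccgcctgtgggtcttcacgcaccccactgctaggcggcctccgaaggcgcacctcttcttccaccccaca
Psmb9: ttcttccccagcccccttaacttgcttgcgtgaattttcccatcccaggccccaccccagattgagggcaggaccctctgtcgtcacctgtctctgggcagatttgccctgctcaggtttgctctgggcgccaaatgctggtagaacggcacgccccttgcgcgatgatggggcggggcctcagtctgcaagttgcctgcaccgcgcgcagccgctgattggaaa
Psmb10: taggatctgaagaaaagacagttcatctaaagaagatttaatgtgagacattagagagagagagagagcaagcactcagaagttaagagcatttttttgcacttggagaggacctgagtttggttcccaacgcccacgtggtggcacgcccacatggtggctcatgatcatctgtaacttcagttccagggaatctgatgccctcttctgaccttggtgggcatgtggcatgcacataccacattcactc
Psmb5: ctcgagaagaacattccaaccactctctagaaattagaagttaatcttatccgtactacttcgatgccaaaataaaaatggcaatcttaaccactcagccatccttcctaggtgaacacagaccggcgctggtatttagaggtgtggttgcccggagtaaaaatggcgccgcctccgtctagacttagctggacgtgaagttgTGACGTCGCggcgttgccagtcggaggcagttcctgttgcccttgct
Psmb6: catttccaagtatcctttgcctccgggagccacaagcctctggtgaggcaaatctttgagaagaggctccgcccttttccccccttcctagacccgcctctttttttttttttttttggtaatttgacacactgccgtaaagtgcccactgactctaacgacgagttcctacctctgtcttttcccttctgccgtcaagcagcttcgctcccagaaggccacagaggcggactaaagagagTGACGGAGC

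Across the full windows, which run from 250 bases before to 50 bases after each start, motifs were searched on both strands. The antioxidant response element letters occurred in 6 of the 42 members, Psmb5, Psmb6, Psmc6, Psmd9, Psmd12 and Psme4, against 13.99% of 27025 genes with a window. The gamma-activated site letters occurred in Psmb8, Psmd2 and Psmg1, against 9.55% of all genes. The interferon-stimulated response element core, a GAAA repeated after 2 free bases, occurred in Psmb3, Psmd4, Psmd9, Psme1 and Psmg4, against 3.99%. These matches are letters in a window and not evidence of binding.

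Libraries held 18449986 to 21827619 counts, and 84156 to 100309 of them fell on the 48 tested members. Values below are CPM, the counts of a gene relative to its library's total after TMM scaling. Log2 fold changes are IR insulin minus IR vehicle from edgeR's quasi-likelihood test, and p-values were adjusted across all 13377 genes by the Benjamini-Hochberg method. Library IR vehicle 2 stood apart, with 16470 genes detected against 18389 to 18874 in the other libraries, and it had the highest sums of erythroid markers (1181 CPM, against 292 to 589) and B cell markers (10.9 CPM, against 1.25 to 3.51). The hepatocyte marker Alb, checked for the liver label, lay between 38255 and 138554 CPM. Summed hepatocyte markers were 65836, 156419 and 100442 CPM in IR vehicle 1 to 3 and 54434 to 69561 CPM with insulin. Most of each sum was Alb, and the markers disagreed in IR vehicle 2. Alb, Ttr and Serpina1a were at their highest there, Apoa1 (3901 CPM) and Hnf4a (445 CPM) at their lowest, and Cps1 lay between.

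No proteasome gene passed the test for a difference between the groups. At an adjusted p under 0.05 the count was 0 of 48 members and 0 of 13377 genes by edgeR, with DESeq2 and limma-voom also giving 0. At an unadjusted p under 0.05 it was 0 of 48 members by all 3 tools, against 2.86% of all genes tested by edgeR, 3.79% by DESeq2 and 1.59% by limma-voom, and the smallest p of a member was 0.136, for Psma6. The adjusted p was 0.852 or more for every tested member. All 48 confidence intervals at 95% included 0, and 32 of them lay wholly between log2 fold changes of -1 and 1, so for the remaining 16 the interval reached beyond 2-fold in at least 1 direction.

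In direction, 21 members were higher and 27 lower with insulin, with a median log2 fold change of -0.08, beside 6501 higher, 6876 lower and a median of -0.02 over all genes tested. Without IR vehicle 2 the split was 29 higher and 19 lower. The groups did not overlap for 3 of 48 members, or 6.25%, beside 12.3% of all genes. These were Psmc1 and Psmd3, higher with insulin as were 6.25% of all genes without overlap, and Psma7, lower with insulin as were 6.04%.

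**Figure D1:**
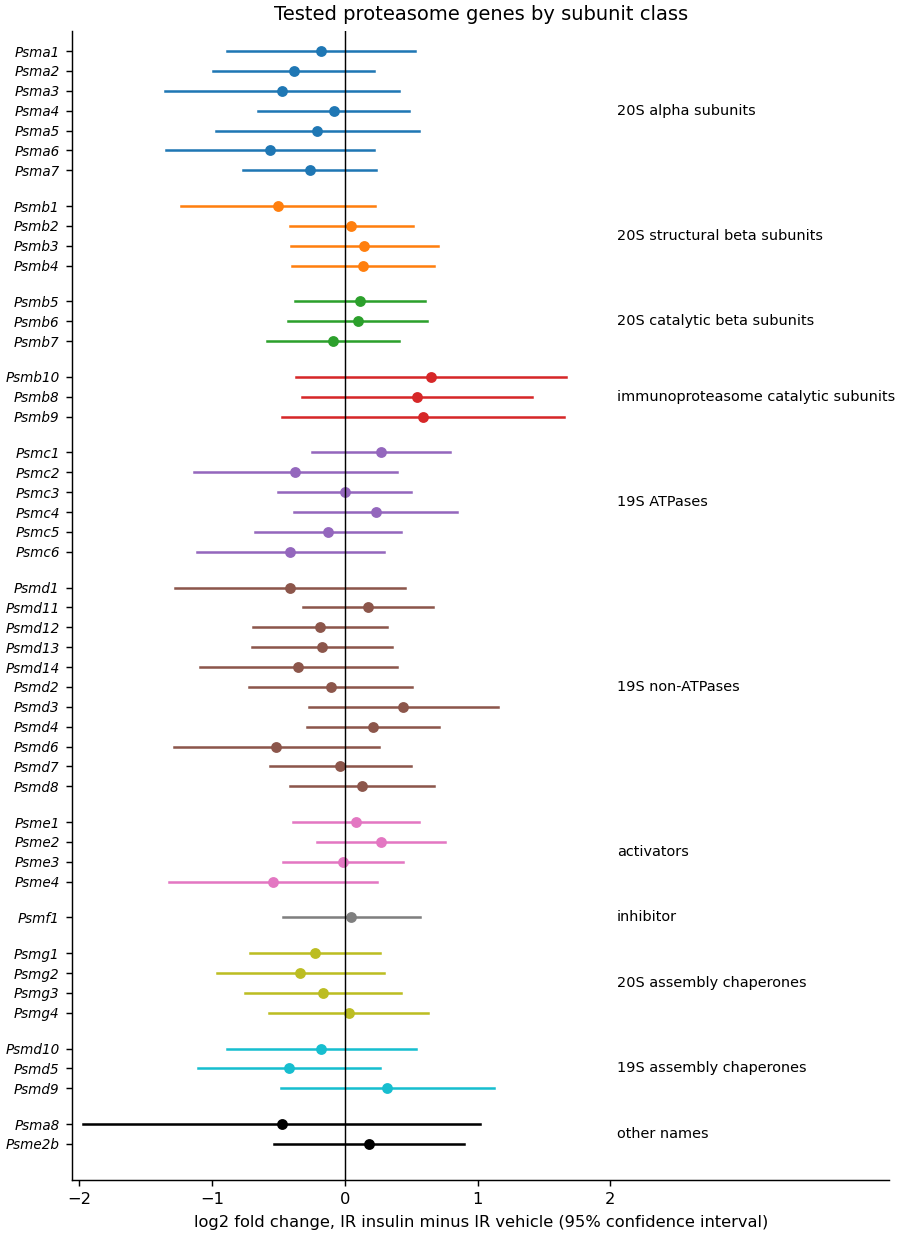
Log2 fold change (x axis, IR insulin minus IR vehicle) with its 95% confidence interval for each of the 48 tested members, grouped and coloured by subunit class. Every interval crosses 0, and the 3 immunoproteasome subunits are the class with the highest estimates, 0.55 to 0.65.

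The immunoproteasome catalytic subunits had the highest estimates of any class, all 3 higher with insulin, with a median log2 fold change of 0.59, and none passed the test. Psmb8 stood at 45.5, 27.6 and 15.5 CPM in IR vehicle 1, 2 and 3 and at 37.6, 43.03 and 48.7 CPM in IR insulin 1, 2 and 3. Psmb9 was at 35.6, 20.1 and 8.39 CPM with vehicle and at 28.4, 35.8 and 32.1 CPM with insulin. Psmb10 was at 99.0, 29.2 and 37.5 CPM with vehicle and at 80.8, 92.6 and 86.4 CPM with insulin. For each of the 3 genes the insulin libraries sat close together, IR vehicle 1 sat among or above them, and IR vehicle 2 and 3 lay below every insulin library, so the groups overlapped through a single library. The group means for Psmb8 were 29.5 ± 15.1 and 43.1 ± 5.56 CPM (SD, n = 3 each), with a log2 fold change of 0.55 ± 0.37 (standard error; unadjusted p = 0.183, adjusted p = 0.852, edgeR). Those for Psmb10 were 55.2 ± 38.1 and 86.6 ± 5.89 CPM, with a log2 fold change of 0.65 ± 0.44 (unadjusted p = 0.178, adjusted p = 0.852, edgeR), and Psmb9 gave 0.59 ± 0.46 (unadjusted p = 0.236, adjusted p = 0.852, edgeR).

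These estimates rested on which vehicle library was used. Without IR vehicle 1 the log2 fold changes were 1.002 for Psmb8, 1.18 for Psmb9 and 1.38 for Psmb10, and these 3 members alone had an edgeR p under 0.05, at a setting where 9.89% of all genes did and where the smallest adjusted p of a member was 0.481. Without IR vehicle 2 all 3 were higher with insulin, at 0.35 to 0.55. Without IR vehicle 3 they were 0.24, 0.21 and 0.43. Under voom with sample quality weights they were 0.27, 0.38 and 0.24. With an offset for GC content they were 0.35, 0.29 and 0.33, and with that offset and without IR vehicle 3, a combination chosen after the data were seen, they were 0.0031, -0.14 and 0.04. With that offset and without IR vehicle 1, 4 members had an unadjusted p under 0.05, Psma7, Psmb1 and Psmg1 lower and Psmb10 higher, against 11.2% of all genes. With that offset and without IR vehicle 3, 3 members did, Psma7, Psmc3 and Psme1, all lower, against 5.29% of all genes. In whole liver, fewer cells of a type and less RNA per cell cannot be told apart. The leukocyte markers Ptprc, Cd52, Coro1a and Laptm5 had sums of 42.7 to 54.2 CPM with vehicle and of 45.1 to 72.8 CPM with insulin, all 4 were tested and 3 were higher with insulin, and among T and NK cell markers Cd8a was at 0 in IR vehicle 1 and 2 and the 4 summed to 0.866 to 1.31 CPM. Neutrophil markers summed to 3.43 CPM in IR vehicle 3, the library lowest in Psmb8 and Psmb9, and to 27.3 to 72.9 CPM elsewhere. Their highest sum, 72.9 CPM, was in IR vehicle 2, the library lowest in Psmb10. Most of that sum was S100a8 (50.3 CPM). S100a9 and Retnlg were instead highest in IR insulin 1, at 30.8 and 3.78 CPM, against 20.4 and 2.15 CPM in IR vehicle 2. Kupffer cell and macrophage markers in IR vehicle 3 summed to 327 CPM. That was above the 213 and 231 CPM of the other vehicle libraries and within the 203 to 385 CPM of the insulin group. These markers disagreed in IR vehicle 3. Clec4f (120 CPM) was at its highest there and Adgre1 (15.4 CPM) at its lowest, and Cd68, Csf1r and Cd5l lay between. Endothelial markers in IR vehicle 3 summed to 131 CPM, against 58.2 to 90.8 CPM elsewhere. The part of these cells, and of the hepatocyte sums above, in the immunoproteasome values was not tested.

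**Figure D2:**
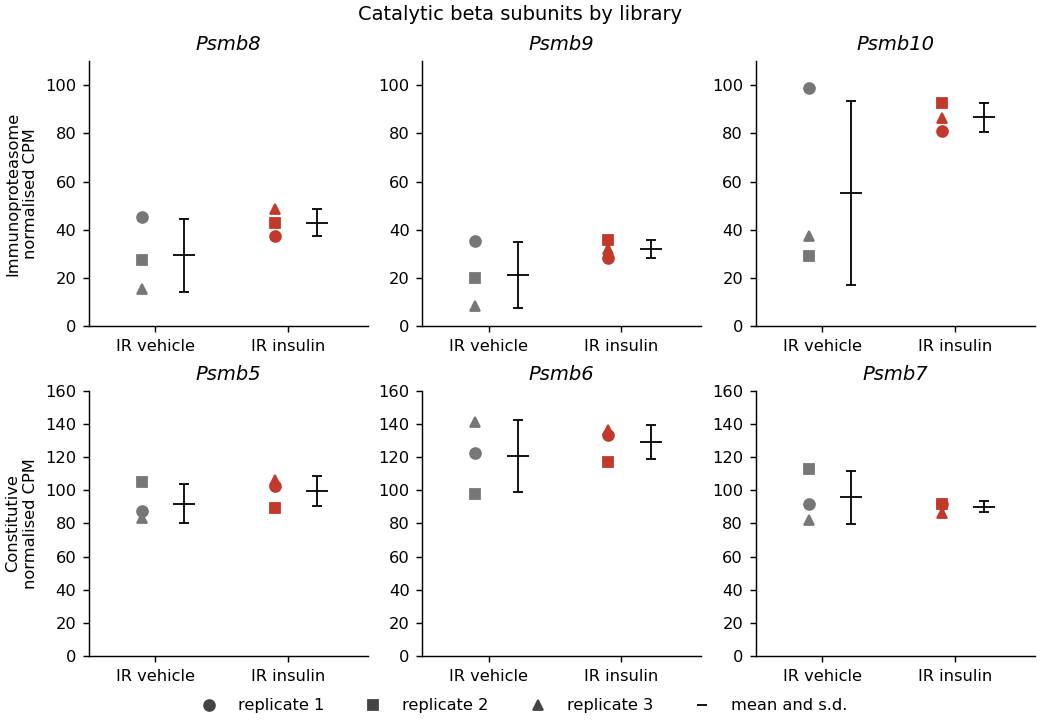
Normalised CPM (y axis, from 0) of the immunoproteasome catalytic subunits (upper row) and the constitutive subunits they replace (lower row) in the 3 IR vehicle (grey) and 3 IR insulin (red) libraries; marker shape gives the replicate, and the bars show mean and s.d. IR vehicle 2 and 3 lie below the insulin libraries for Psmb8, Psmb9 and Psmb10, while the constitutive subunits overlap between groups.

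The constitutive catalytic subunits gave small estimates of mixed sign. Psmb5, which carries the chymotrypsin-like site, stood at 87.3, 105 and 83.0 CPM with vehicle and at 103, 89.2 and 106 CPM with insulin. Psmb6, with the caspase-like site, was at 122.6, 98.04 and 141 CPM and at 133, 117 and 137 CPM. Psmb7, with the trypsin-like site, was at 91.6, 113 and 82.3 CPM and at 92.0, 91.8 and 86.1 CPM. The groups overlapped for all 3, and the log2 fold changes were 0.12, 0.10 and -0.09, with intervals from -0.38 to 0.61, -0.43 to 0.62 and -0.59 to 0.41. With the GC offset each took the opposite sign, at -0.43 for Psmb5, -0.039 for Psmb6 and 0.17 for Psmb7, and Psmb5 was at -0.68 with that offset and without IR vehicle 3.

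The balance of the 2 catalytic sets can be read within each library, where scaling between libraries has no part. A trend with GC content in a library is not removed by this, and Psmb10 and Psmb7, for example, have GC contents of 56.5% and 40.8% in their longest transcripts. For Psmb7 that transcript has 2849 bases and the longest coding transcript 1160, so its GC content and its length come from different transcripts. Per kb of the longest coding transcript, summed Psmb8, Psmb9 and Psmb10 CPM came to 39.3, 16.0 and 13.0 per 100 of summed Psmb5, Psmb6 and Psmb7 in IR vehicle 1 to 3, and to 29.3, 37.98 and 32.9 in IR insulin 1 to 3. On the log2 scale the ratio averaged -2.31 ± 0.85 with vehicle and -1.59 ± 0.19 with insulin (SD, n = 3 each), a difference of 0.72 in which IR vehicle 1 exceeded every insulin library. By pair, the differences were 0.55 for Psmb8 to Psmb5, 0.70 for Psmb9 to Psmb6 and 0.94 for Psmb10 to Psmb7. The difference of the summed ratio was 1.20 without IR vehicle 1, 0.55 without IR vehicle 2 and 0.40 without IR vehicle 3. With the GC offset and all libraries it was 0.57, and IR vehicle 2 stood at 19.8 per 100. Levels per kb ran from 19.8 for Psmb9 and 22.3 for Psmb8 to 54.1 for Psmb10, below the 80.0 for Psmb7, 106 for Psmb5 and 156 for Psmb6 (means of 6 libraries, CPM per kb).

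**Figure D3:**
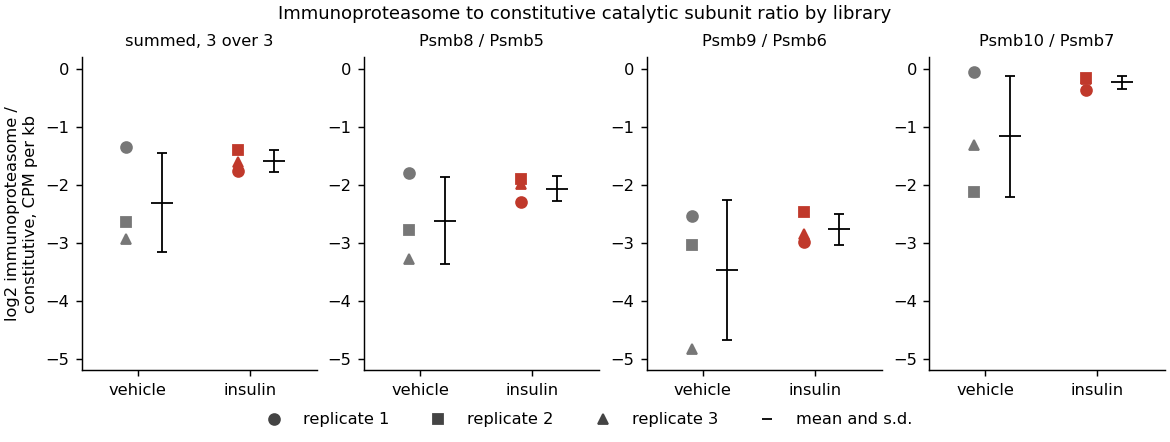
Log2 ratio (y axis) of immunoproteasome to constitutive catalytic subunits in CPM per kb, for the summed sets and for each pair, by library; colours, marker shapes and bars as for the plot of CPM by library. The 3 insulin libraries lie close together, and the vehicle libraries spread wider, with IR vehicle 1 above every insulin library except in the Psmb9 to Psmb6 pair and IR vehicle 2 and 3 below every insulin library.

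Psmb9 and Tap1 share 275 bases of their start windows, and their counted regions overlap on opposite strands. The strand use of the counting is not given in the sources used here, so reads from the 2 genes may not be fully separated, as also for Psmb8 and Gm20496 and for Psmb10 and Gm16156. Constitutive subunits overlap other genes too. Psmb7 overlaps Gm27634 on its own strand and Nek6 and Gm13586 on the other, and Psmb5 overlaps Mir686 on its own strand. Tap1 was at 41.1, 15.1 and 15.5 CPM with vehicle and at 44.3, 55.4 and 33.0 CPM with insulin (log2 fold change 0.89 ± 0.43 SE, unadjusted p = 0.0721, adjusted p = 0.852, edgeR). Irf1, a transcription factor of the interferon response, was at 20.8, 11.5 and 15.4 CPM and at 27.8, 28.5 and 17.8 CPM (0.63, unadjusted p = 0.0695, adjusted p = 0.852, edgeR). Tap2, the partner of Tap1, was at 22.8, 14.2 and 9.35 CPM and at 19.3, 21.6 and 35.5 CPM (0.72, unadjusted p = 0.0955, adjusted p = 0.852, edgeR). IR vehicle 1 was the highest vehicle library for all 3 genes and overlapped the insulin group. Of the 11 interferon and class I genes, 8 were higher and 3 lower with insulin, with a median of 0.45, and 0 of 11 had an edgeR p under 0.05, beside the 2.86% over all genes.

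Among the activators, Psme1 and Psme2, the interferon-induced subunits of the 11S cap, gave small estimates with overlapping groups. Psme1 was at 89.8, 71.4 and 75.9 CPM with vehicle and at 83.3, 87.2 and 81.4 CPM with insulin (log2 fold change 0.09, or -0.34 with the GC offset). Psme2 was at 45.7, 38.3 and 37.8 CPM and at 46.8, 45.4 and 55.0 CPM (0.27), and its near copy by name, Psme2b, at 47.9, 29.9 and 21.2 CPM and at 35.2, 41.1 and 36.1 CPM (0.18). Reads that fit both copies can be divided between them by counting, and Psme2b also overlaps another gene on its own strand, so both values are uncertain. Psme4, the large single-chain activator PA200, was at 137, 264 and 111 CPM and at 112, 117 and 123.3 CPM (-0.54, unadjusted p = 0.149, adjusted p = 0.852, edgeR), high in IR vehicle 2 alone. Psmf1, which encodes the inhibitor PI31, was at 26.9, 23.8 and 31.5 CPM and at 26.2, 32.8 and 26.0 CPM (0.05).

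All 7 alpha ring subunits were lower with insulin, with a median log2 fold change of -0.26, and none passed the test. Psma6 was at 132, 293 and 137 CPM with vehicle and at 132, 122 and 127 CPM with insulin (-0.56 ± 0.34 SE, unadjusted p = 0.136, adjusted p = 0.852, edgeR). Psma3 was at 116, 265 and 96.7 CPM and at 118, 108 and 118 CPM (-0.47), and Psma2 at 105, 157 and 89.7 CPM and at 86.7, 98.1 and 84.6 CPM (-0.38). In all 3 the IR vehicle 2 library was by far the highest and the other libraries lay together. Without IR vehicle 2 the alpha subunits were 4 higher and 3 lower, with a median of 0.11, and 2 were higher and 5 lower both with the GC offset (median -0.11) and under voom with sample quality weights (median -0.089). Psma7, singled out here after its values were seen because its groups did not overlap, was at 161.9, 220 and 185 CPM and at 161.6, 155 and 156 CPM (-0.26, or -0.87 with the GC offset, unadjusted p = 0.263 without it, adjusted p = 0.852, edgeR).

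The structural beta subunits had a median of 0.09, with 3 higher and 1 lower, but all 4 were lower without IR vehicle 2 (median -0.012), and 1 was higher and 3 lower with the GC offset (median -0.047). Psmb1 was at 158, 334 and 177 CPM with vehicle and at 161, 158 and 155 CPM with insulin (-0.50). Psmb3 was at 105, 74.96 and 119 CPM and at 111, 106 and 115 CPM (0.15), and Psmb4 at 213, 155 and 221 CPM and at 226, 209 and 213 CPM (0.14). IR vehicle 2 was the extreme library in all 3, as the highest for Psmb1 and the lowest for Psmb3 and Psmb4. Taken as a whole, the 14 constitutive core subunits were 5 higher and 9 lower, with a median of -0.13. The core median was -0.0053 without IR vehicle 2, with 6 higher and 8 lower, -0.26 without IR vehicle 3, and -0.0029 under voom with sample quality weights, with 7 higher and 7 lower.

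In the 19S particle, 7 of 17 subunits were higher and 10 lower with insulin, with a median of -0.11, which was 0.086 with 13 higher and 4 lower without IR vehicle 2 and -0.0067 with 8 higher and 9 lower under voom with sample quality weights. Psmc6 was at 140, 248 and 119 CPM with vehicle and at 131, 124 and 128 CPM with insulin (-0.41). Psmc2 was at 105, 206 and 90.4 CPM and at 102, 102 and 106 CPM (-0.37). Psmc1 was at 129, 88.8 and 120 CPM and at 141, 133 and 134 CPM (0.27, unadjusted p = 0.262, adjusted p = 0.852, edgeR), with every insulin library above every vehicle library. These genes encode ATPases of the ring that unfolds substrates and opens the core, and Psmc6 and Psmc2 differed from Psmc1 in which way IR vehicle 2 lay. Psmc3, another of these ATPases, was at 164, 174 and 128 CPM and at 154, 152 and 160.5 CPM, with overlap (0.00087, or -0.42 with the GC offset).

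The non-ATPases showed the same spread of signs, 4 higher and 7 lower. Psmd6, a scaffold subunit of the lid, was at 110, 225 and 101 CPM with vehicle and at 100, 98.6 and 106 CPM with insulin (-0.51), and Psmd1, the large base scaffold, at 107, 224 and 81.0 CPM and at 104, 96.2 and 108 CPM (-0.41). Psmd3, also of the lid, was at 109, 53.3 and 106 CPM and at 114, 114 and 137 CPM (0.44, unadjusted p = 0.188, adjusted p = 0.852, edgeR), with no overlap between groups. IR vehicle 2 was the highest library for the first pair and the lowest for Psmd3. Psmd4, the ubiquitin receptor, was at 124, 90.4 and 112 CPM and at 129, 122 and 126 CPM (0.21), and Psmd14, the deubiquitinase that removes the chain, at 72.6, 110 and 45.7 CPM and at 59.4, 60.6 and 59.5 CPM (-0.35). Without IR vehicle 3, Psmd14 and Psme4 were the 2 members with an edgeR p under 0.05, both lower with insulin, against 6.55% of all genes at that setting.

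The assembly factors were lower in level. Psmg2 was at 15.4, 22.9 and 12.9 CPM with vehicle and at 12.7, 13.0 and 14.9 CPM with insulin (-0.33), Psmg1 at 15.7, 18.4 and 19.5 CPM and at 14.3, 15.2 and 16.5 CPM (-0.22), and Psmg3 at 6.50, 9.09 and 7.44 CPM and at 6.89, 7.40 and 6.27 CPM (-0.16). All encode chaperones of alpha ring assembly, and their groups overlapped. The 19S chaperone genes Psmd5, Psmd9 and Psmd10 had log2 fold changes of -0.42, 0.32 and -0.18. Psmd5 was at 44.9, 77.3 and 40.2 CPM and at 36.3, 37.7 and 47.2 CPM, and Psmd9, which overlaps Hpd, at 62.4, 31.7 and 83.6 CPM and at 82.1, 65.6 and 74.5 CPM. Psmd10 was at 20.7, 30.8 and 13.9 CPM and at 20.1, 20.2 and 17.4 CPM, with overlap in all 3.

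**Figure D4:**
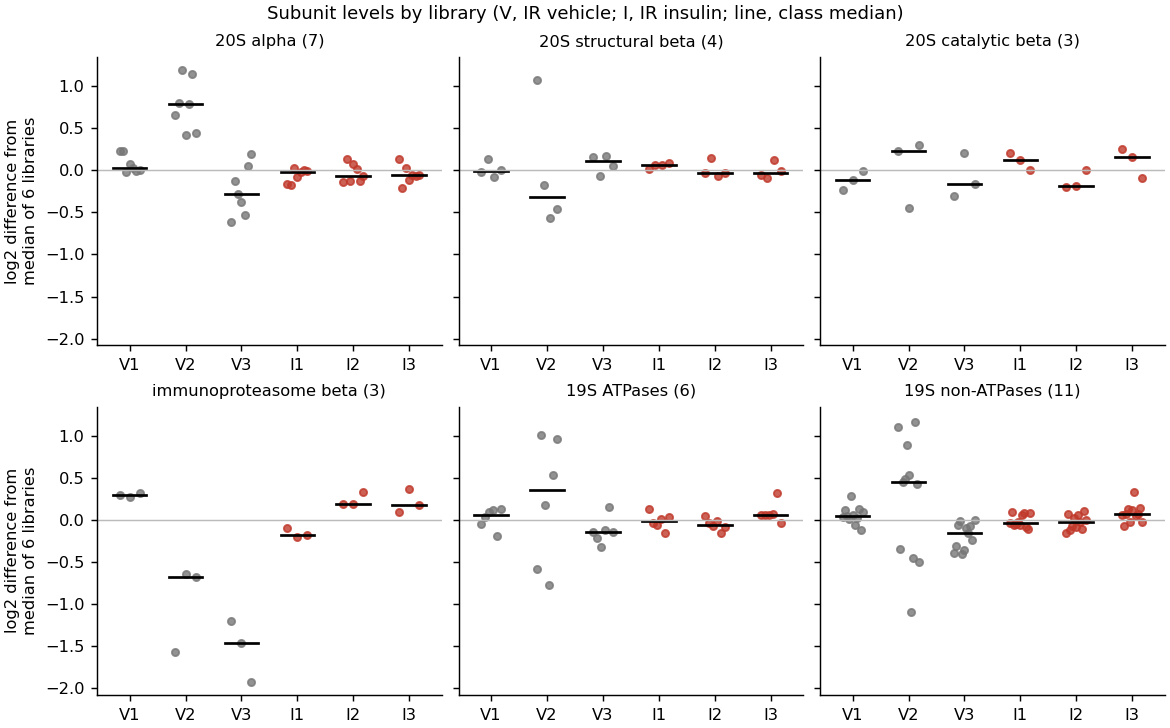
Log2 difference of each subunit from its median over the other libraries (y axis, labelled as the median of 6 libraries), by library and class. V is IR vehicle (grey) and I is IR insulin (red). Each point is a gene and black lines are class medians. The IR vehicle 2 library spreads to both sides of 0 in the structural beta, catalytic beta and 19S classes and lies above 0 for the alpha ring, where its median is 0.79, and the immunoproteasome subunits are low in IR vehicle 2 and 3.

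The deviations of IR vehicle 2 followed the GC content of the transcripts across the whole table, with a Spearman rho of -0.67 over 13367 genes, and the proteasome genes shared in it. The log2 difference of each library was taken from the median of the other libraries. Over 43 members without the immunoproteasome subunits and the other names, that of IR vehicle 2 ran from -1.23 to 1.19. It lay beyond 0.5 on either side for 22 genes, against 0 to 3 genes in each other library. The slope of this difference in IR vehicle 2 was -0.68 per 10 percentage points of GC content. The Spearman rho was -0.59 over 43 genes that share this 1 library, its depth and its preparation, given as a description. In the third of these genes with the lowest GC content, IR vehicle 2 was above the median of the other libraries by a median of 0.92. Of these genes, 1 was higher and 13 lower with insulin. In the third with the highest GC content IR vehicle 2 was below, with a median difference of -0.24, and 11 genes were higher and 3 lower with insulin. The cause of this pattern was not tested.

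**Figure D5:**
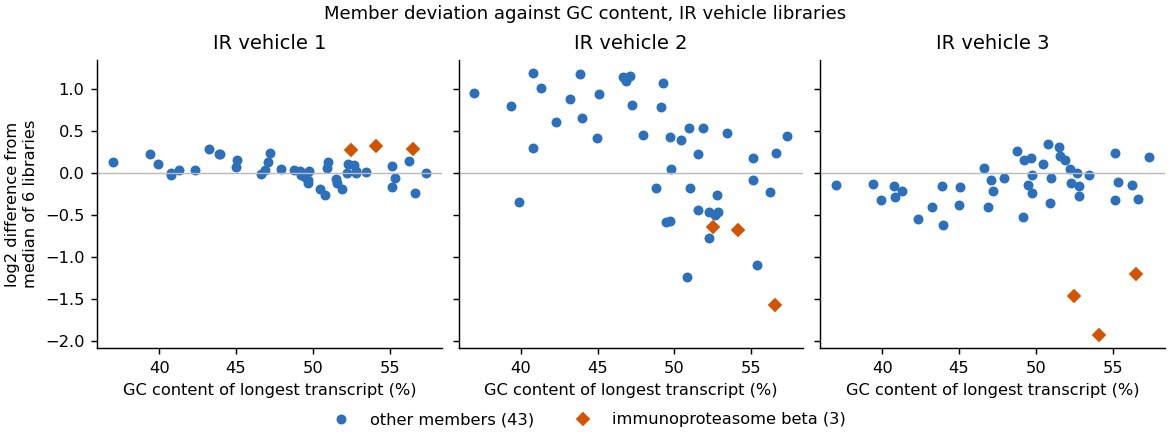
Log2 difference of each of 46 members from its median over the other libraries (y axis, labelled as the median of 6 libraries), for each IR vehicle library. The x axis is the GC content of the longest transcript in percent. Blue circles are 43 members and orange diamonds the 3 immunoproteasome subunits. In IR vehicle 2 the blue points slope down from low to high GC content, and in IR vehicle 3 the immunoproteasome subunits lie below all other members.

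Within the insulin group the members varied little. The coefficient of variation of a gene depends on its count level, and all genes tested, set beside the members here, were not matched for it. Over the 3 insulin libraries the coefficient had a median of 5.01% for the 43 members, against 12.8% over all genes tested. Among the members it was lowest for Psmd14 at 1.07%. In the vehicle group the median was 21.5%, against 36.2% over all genes, and it was 63.9% for the immunoproteasome subunits. With IR vehicle 1 and 3 as the vehicle group it was 10.3% for the 43 members, 18.7% over all genes and 69.5% for the immunoproteasome subunits, so the value of the 43 members rested largely on IR vehicle 2. Within the 20S core, levels per kb ran from 35.6 for Psma2 to 174 for Psmb4 (means of 6 libraries, CPM per kb of the longest coding transcript), and the isoform used was not known. In the 19S particle they ran from 32.0 for Psmd11 to 89.0 for Psmd6. The coefficient of variation among the 17 19S subunits was 28.5% to 30.5% in 5 libraries and 47.5% in IR vehicle 2.

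The genes that act with the proteasome gave no call either. Of 11 tested proteasome-bound and assembly genes without a Psm name, 5 were higher and 6 lower, with a median of -0.24 and 0 with an edgeR p under 0.05. Zfand5, a ubiquitin-binding activator, was at 59.5, 94.0 and 65.6 CPM with vehicle and at 48.5, 52.3 and 54.2 CPM with insulin (-0.50, unadjusted p = 0.0720, adjusted p = 0.852, edgeR), with no overlap. The groups did not overlap for 2 of these 11 genes, Zfand5 and Sem1 (0.20, higher with insulin), beside 12.3% of all genes. Zfand2a was at 16.0, 10.7 and 8.44 CPM and at 15.3, 16.5 and 21.1 CPM (0.59), and Usp14, the deubiquitinase that trims chains, at 54.6, 91.0 and 39.7 CPM and at 43.5, 47.3 and 36.7 CPM (-0.54), with both groups overlapping. Paaf1 is not analysed here. Among 4 genes that control proteasome transcription, 1 was higher and 3 lower, with a median of -0.09. Nfe2l1 was at 129, 45.2 and 109 CPM with vehicle and at 134, 139 and 130 CPM with insulin (0.51 ± 0.37 SE, unadjusted p = 0.208, adjusted p = 0.852, edgeR). Its insulin libraries lay above all vehicle libraries, and IR vehicle 2 was far below the rest. Nfe2l1 was the 1 gene of these 4 without overlap, beside 12.3% of all genes.

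Of 14 ubiquitin supply and delivery genes, 6 were higher and 8 lower, with a median of -0.02 and 0 with an edgeR p under 0.05. Ufd1, a cofactor of the VCP segregase, was at 42.4, 58.5 and 38.3 CPM with vehicle and at 35.7, 37.6 and 37.5 CPM with insulin (-0.33), lower in every insulin library than in every vehicle library. Ufd1 was the 1 gene of these 14 without overlap, beside 12.3% of all genes. Uba6, an E1 enzyme, was at 11.4, 28.6 and 5.63 CPM and at 9.05, 9.65 and 9.04 CPM (-0.71).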

How the data were processed

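The authors used an NEBNext Ultra RNA library kit and a HiSeq instrument, mapped the reads to mm10 with Bowtie2 2.2.3 (per the labels) and tested with DESeq2. The deposited table holds raw counts per gene for 6 libraries from separate mice. The counting program, annotation and strand use are not given in the sources used here. Counts were scaled by TMM and tested in edgeR 4.0.16 (glmQLFit, glmQLFTest; R 4.3.3) after filterByExpr with a minimum count of 10 and a total of 15, and the fit was tested on simulated data. DESeq2 1.42.0, limma 3.58.1, RLE and upper-quartile factors, no filter, a GC offset by loess (span 0.5), the replicate number as a block and each library left out were alternatives. The study's criteria were an absolute log2 fold change of 0.35 and an unadjusted p under 0.05. Lengths (longest coding transcript) and GC content (longest transcript of any type) came from GENCODE vM21, and promoters from RefSeq. The gene family, its classes and the lists, and so the members, were chosen with earlier results of these data known, and within the family members were taken by name. Values in every library are given for Psmb5 to Psmb10, Psme1, Psme2, Psmd4, Psmd14, up to 3 members a class with the smallest p, any member with an unadjusted p under 0.05 in any fit, and up to 3 genes of each pathway list. A gene of the ubiquitin list that this rule names is not reported here. Counting precision is set by 18449986 to 21827619 counts a library.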

Additional observations from a re-analysis of the deposited data

How the results depend on the processing

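No setting gave a proteasome gene or any other gene an adjusted p under 0.05. Of 32 named members under 17 other settings each, 66 fitted log2 fold changes changed sign and 478 did not, and none passed the test. The cause of the changes of sign was not tested. The replicate numbers did not pair the libraries (correlations of same-numbered deviations -0.039, 0.069 and 0.017), and with a replicate block 0 members and 321 of all genes, against 383, had an unadjusted p under 0.05.

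Psmc3, at 0.00087 in edgeR, was at -0.012 with RLE factors, with DESeq2 and under voom. With the GC offset, log2 fold changes were -0.027 for Psmb4, -0.43 for Psmb5, -0.039 for Psmb6, 0.17 for Psmb7, -0.42 for Psmc3, 0.017 for Psmc6, 0.086 for Psmd10 and -0.34 for Psme1, and with the replicate block as well -0.027, -0.28, -0.038, 0.17, -0.31, 0.015, 0.098 and -0.29 in the same order. Class medians with the offset, and then with both, were 0.086 and 0.098 for 19S assembly chaperones, -0.039 and -0.038 for catalytic beta subunits, -0.047 and -0.048 for structural beta subunits and -0.19 and -0.18 for activators. Under voom with sample quality weights the values were 0.0030 for Psmb7, 0.027 for Psmd10, -0.011 for Psme1 and 0.028 for Psmg3, with medians of 0.027 for 19S assembly chaperones, 0.026 for catalytic beta subunits and 0.016 for structural beta subunits. The structural beta median was 0.13 under upper-quartile factors.

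Fits without IR vehicle 1 or 3, with or without the GC offset, gave 2 to 4 members an unadjusted p under 0.05. Of all genes tested, 5.29% to 11.2% had such a p there. Over fits that left out 1 library, 3 of them also with the GC offset and added after the data were seen, members with such a p numbered 0 to 4. Log2 fold changes ran from -0.73 to 0.14 for Psma3, -0.057 to 0.30 for Psmb3, -0.051 to 0.23 for Psmb4, -0.68 to 0.23 for Psmb5, -0.075 to 0.23 for Psmb6, -0.19 to 0.22 for Psmb7, -0.14 to 1.18 for Psmb9, -0.59 to 0.10 for Psmc2, -0.66 to 0.093 for Psmc3, -0.61 to 0.028 for Psmc6, -0.68 to 0.14 for Psmd1, -0.42 to 0.18 for Psmd10, -0.61 to 0.034 for Psmd14, -0.049 to 0.32 for Psmd4, -0.020 to 0.65 for Psmd9, -0.53 to 0.19 for Psme1, -0.072 to 0.37 for Psme2 and -0.073 to 0.16 for Psmf1. Class medians ran from -0.14 to 0.070 for 19S ATPases, -0.42 to 0.14 for 19S assembly chaperones, -0.25 to 0.098 for 19S non-ATPases, -0.21 to 0.086 for the 19S particle, -0.46 to 0.12 for alpha subunits, -0.45 to -0.041 for 20S assembly chaperones, -0.075 to 0.16 for catalytic beta subunits, -0.057 to 0.15 for structural beta subunits and -0.27 to 0.089 for activators. Depth was 18449986 to 21827619 counts a library, and with 3 libraries a group the 95% interval of 16 of 48 members extended beyond a log2 difference of 1 in size.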
